A study of Mus musculus with 8 samples.

Results

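The ubiquitin-specific proteases (USPs) are the largest family of enzymes that take ubiquitin off proteins. The members described here were the genes of the table whose symbol is Usp followed by a number and, in some, further letters or digits, with 1 such symbol left out by rule. They came to 39 of the 11756 genes listed, and 37 of them were tested. Usp6nl was taken in by its symbol alone: it encodes a GTPase-activating protein of Rab GTPases and no protease.

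Ubiquitin is attached to proteins by a chain of E1, E2 and E3 enzymes, as a mark for the proteasome, for sorting at endosomes or for the assembly of signalling complexes. USPs reverse this with an active-site cysteine, and each is set apart by what it binds: the proteasome (Usp14), p53 and its ligase (Usp7, Usp10), nucleosomes (Usp3, Usp16, Usp22), endosomes (Usp8) or mitochondria (Usp30). In dendritic cells and macrophages, several of them are known to act on the signalling of innate immune receptors and of NF-kB.

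RNA was measured in 8 libraries of cells from the bone marrow of C57BL/6 mice, sorted by flow cytometry for CD11c, an integrin of dendritic cells and some macrophages. In 4 libraries the cells had been given acLDL, that is LDL whose lysines have been acetylated so that scavenger receptors take it up, on culture day 6 for 24 h, and 4 libraries were controls without it. Per the labels, acLDL stands in for the surroundings of an atherosclerotic plaque. The labels do not say whether libraries stem from different mice or cultures, so every p-value rests on variation from library to library that may be technical only.

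The deposited values were already normalized between libraries and are not counts. They are given here as "normalized value", with library totals from 3917426 to 4385051. No value lay between 0 and 5, so a value of 0 may stand for a low estimate. Of 9 genes listed as dendritic markers all were in the table, with a summed level of 34812 to 44610 with acLDL and 31182 to 35081 in controls. Itgax, the gene of CD11c, was listed at 0 in 1 acLDL library. Its highest acLDL value was 188.7, and it was 81.5 to 195 in controls. Flt3 and Zbtb46 were also listed at 0 in at least 1 library. So were the macrophage markers Adgre1, Cd68, C1qa and C1qc and the granulocyte markers Ngp, Camp and Retnlg. The same held for Cd79a and Ms4a1 of the lymphocyte markers, and for Cpa3 and Mcpt8 of the mast cell and basophil markers. Macrophage markers summed to 8856 to 12384 with acLDL and 7747 to 9439 in controls, and granulocyte markers to 8402 to 18065 and 11382 to 20272. Lymphocyte markers, with 2 of 8 genes in the table, summed to 29.4 to 76.8 with acLDL and 16.6 to 31.4 in controls. The table held 1 of 6 erythroid markers, at 54.1 to 189.7 with acLDL and 164 to 1429 in controls, and 3 of 5 mast cell and basophil markers, at 21 to 60.2 and 25.0 to 99.0. The part of these other cells in the USP results was not tested. In such bulk samples, fewer cells of a type and less RNA per cell cannot be told apart.

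The libraries differed in how well short transcripts were represented. An index, the mean log2 deviation of those tested genes that have no coding transcript of 1000 nt or more, was 1.11, -1.36, -2.25 and -0.30 in acLDL libraries 1 to 4, and 0.06, 0.94, 1.08 and 0.72 in control libraries 1 to 4. AcLDL library 1 thus lay with the controls and acLDL libraries 2 and 3 farthest from them. For the members described most fully, the log2 fold change with this index as a covariate is given too. The index was lower in 3 of the 4 acLDL libraries than in every control, so its part and that of acLDL cannot be fully told apart. Only acLDL library 1 was not below every control, so all values with the covariate lean heavily on that 1 library.

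Most members shared a pattern around the active-site cysteine. The cysteine box, a pattern of 7 residues, was adjusted after a first version had been tried. It was searched in the translated coding transcripts of the members only, and 36 of 39 members held it. How often other genes hold it was not tested. The 3 without it were Usp39, a splicing factor known to lack protease activity, Usp53, long described as inactive, and Usp6nl. The cysteine codon was TGT in 17 members and TGC in 19. The 33 coding bases around it are shown for the 5 members with the smallest p in the comparison, read from GENCODE mouse release M21 transcripts on GRCm38, 5′ to 3′, with the cysteine codon in capitals.
Usp36: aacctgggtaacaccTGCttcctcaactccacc
Usp48: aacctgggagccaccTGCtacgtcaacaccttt
Usp16: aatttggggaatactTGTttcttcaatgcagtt
Usp12: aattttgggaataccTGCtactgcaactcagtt
Usp46: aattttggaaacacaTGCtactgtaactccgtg
These codons lie in exon 4 of Usp36 (chr11:118284941-118284943, minus strand), exon 3 of Usp48 (chr4:137605788-137605790, plus strand), exon 6 of Usp16 (chr16:87469839-87469841, plus strand), exon 3 of Usp12 (chr5:146763400-146763402, minus strand) and exon 3 of Usp46 (chr5:74032503-74032505, minus strand). The windows of Usp12 and Usp46, which encode close paralogs, were equal at 27 of 33 bases. The longest coding sequences of the members ran from 366 codons in Usp46 to 3601 in Usp34.

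No USP gene passed the threshold between acLDL and control cells. Each gene was tested with limma on log2(normalized value + 5), two-sided, with Benjamini-Hochberg adjustment over 10091 genes and a threshold of 0.05, and fold changes are on that scale, which understates those of low genes. Of the 37 tested members, 0 were called, against a background of 0% of all genes, and the smallest adjusted p was 0.298 both among members and over all genes. At an unadjusted p under 0.05 there were 5 members, or 13.5%, against 16.4% of all genes. Of these, 3 had a higher mean with acLDL (Usp36, Usp48 and Usp46), where the background was 7.42%, and 2 a lower one (Usp12 and Usp16), where it was 8.93%.

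The family as a whole did not lie to 1 side. With acLDL, 16 members had a higher and 21 a lower mean log2 value, and the median log2 fold change was -0.10, against -0.13 over all tested genes. Over tested genes with a coding transcript of 3000 nt or more, nearer to the members in length, the median was -0.0009. For 22 of the 37 the log2 fold change was under 0.5 in size. There was no overlap between acLDL and control values for 4 members, 2 of them higher with acLDL (Usp36 and Usp14, background 3.44%) and 2 lower (Usp1 and Usp25, background 2.20%). That is 10.8% of members, against 5.64% of all genes and 6.63% of genes of 3000 nt or more. No test of these shares was made.

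**Figure D1:**
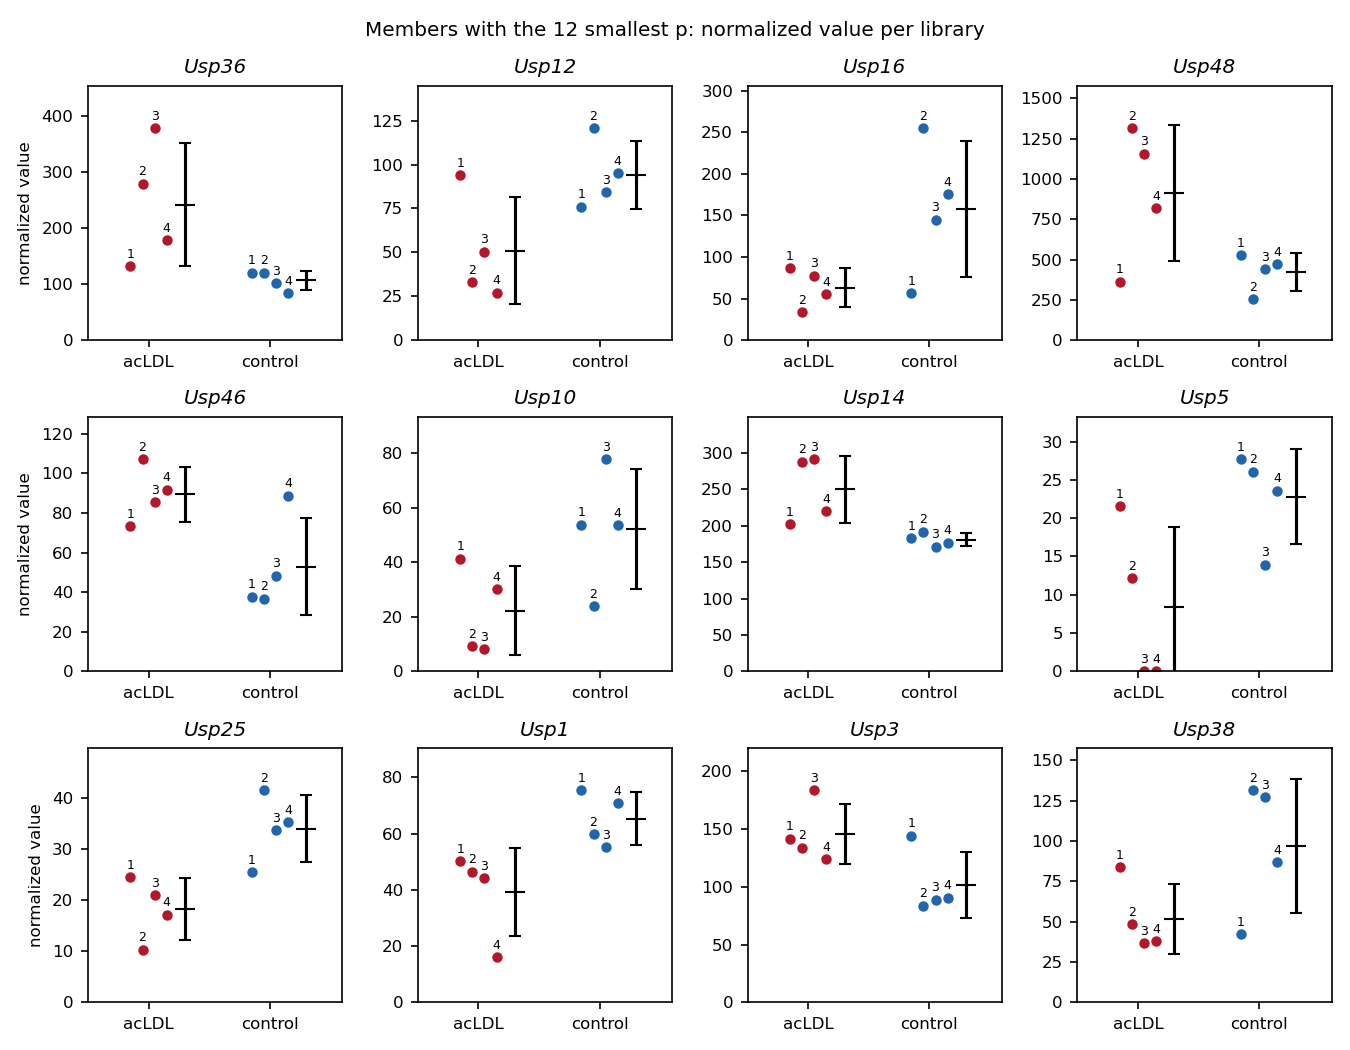
Normalized value (y axis, from 0) in each acLDL library (red, left) and control library (blue, right) for the 12 members with the smallest p; numbers mark the library, and black bars give the mean and SD of 4 libraries. Only Usp36, Usp14, Usp25 and Usp1 have groups that do not overlap, and acLDL library 1 often lies nearest to the controls, as for Usp48 at 364.

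Usp36 had the smallest p of the family. It encodes a nucleolar deubiquitinase that is known to act on ribosome synthesis and on the stability of c-Myc. Its normalized value was 132, 279.6, 378 and 179 in acLDL libraries 1 to 4, and 121, 121, 102 and 84.6 in control libraries 1 to 4. Every acLDL library lay above every control, but library 1 by little. The log2 fold change was 1.04 (SE 0.34, 95% interval 0.28 to 1.81, limma's adjusted p = 0.298). With any 1 library left out it was 0.80 to 1.29, and it was 0.52 without acLDL libraries 2 and 3, and 0.45 with the short-transcript covariate. The other member placed at RNA in the nucleus, Usp39, averaged 25.9 ± 11.0 with acLDL and 22.1 ± 11.4 in controls (SD, n = 4 each). It was 12.2 to 36.0 with acLDL and 5.0 to 29.1 in controls, so the groups overlapped.

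Usp48 had the next highest fold of the members with a higher mean. Its product is known to work on chromatin and on NF-kB signalling, where it limits the turnover of RelA. The normalized value was 364, 1313, 1156 and 819 in acLDL libraries 1 to 4, and 529.8, 255, 439.8 and 474 in control libraries 1 to 4. AcLDL libraries 2, 3 and 4 lay above every control, while library 1 lay among them. The log2 fold change of 0.99 (SE 0.41, limma's adjusted p = 0.298) was 0.25 with the short-transcript covariate and 0.41 without acLDL libraries 2 and 3.

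Genes of histone deubiquitinases had means on both sides of those in controls. Of 7 tested, means were higher for 3 and lower for 4 with acLDL. The median log2 fold change was -0.06, and 0 were called. Usp16, which removes ubiquitin from histone H2A, was 86.7, 33.6, 77.6 and 55.9 with acLDL in libraries 1 to 4, and 56.5, 255, 145 and 175 in control libraries 1 to 4. AcLDL values lay below controls 2, 3 and 4, while control library 1 lay among the acLDL libraries. Its log2 fold change was -1.15 (SE 0.47, limma's adjusted p = 0.298), and -0.78 once the short-transcript index was fitted. Of the 31-base stretches in the last 500 nt of its transcript, 34.5% occur in its opposite-strand neighbour Cct8, so its level is uncertain. Cct8 was 592, 1047, 1019 and 698 with acLDL, and 597, 478, 530.0 and 522 in controls. Usp3, another H2A enzyme, was 141, 134, 183 and 124 with acLDL, and 144, 83.7, 88.7 and 90.3 in controls, where library 1 stood above the other three. Usp22, the subunit of the SAGA complex that acts on histone H2B, averaged 60.4 ± 16.8 with acLDL and 77.5 ± 35.7 in controls (SD, n = 4 each), with full overlap. With the covariate its log2 fold change was -0.71, against -0.24 without it. Its relative Usp27x was 22.2 to 60.3 with acLDL and 19.0 to 41.2 in controls. Usp21 was listed at 0 in 1 library of each group and did not exceed 29.6 in any.

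The paralogs Usp12 and Usp46 differed in direction. Both encode small enzymes that are active only when bound to the WD40 proteins encoded by Wdr48 and Wdr20, and Wdr48 also activates the product of Usp1. Usp12 was 93.9, 33.0, 50.5 and 27.1 in acLDL libraries 1 to 4, and 76.0, 121, 84.3 and 95.1 in control libraries 1 to 4. AcLDL library 1 lay among the controls and the other three below them all. Its log2 fold change was -0.94 (SE 0.39, 95% interval -1.82 to -0.07, limma's adjusted p = 0.298), and -0.58 with the covariate. Usp46 was 73.2, 107, 85.5 and 91.7 with acLDL, and 37.7, 36.7, 48.3 and 88.7 in controls. Here 3 controls lay below every acLDL library and control library 4 lay among them. In log2 terms, the fold change was 0.78 (SE 0.33, 95% interval 0.04 to 1.52, limma's adjusted p = 0.298), and 0.69 with the covariate.

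Set against each other within a library, log2 of Usp12 minus log2 of Usp46 averaged -0.88 ± 0.91 with acLDL and 0.84 ± 0.61 in controls (SD, n = 4 each). Its range was -1.59 to 0.34 with acLDL and 0.09 to 1.59 in controls, so the groups met only through acLDL library 1 and control library 4. The pair was set side by side after its values were seen, and this difference was not tested. Although the paralogs are alike, their longest coding transcripts shared no stretch of 31 bases. Wdr48 was 21.3, 12.8, 0 and 12.8 with acLDL and 19.9, 28.3, 40.0 and 23.2 in controls, with a log2 fold change of -1.17 (SE 0.57, limma's adjusted p = 0.301) and -0.30 with the covariate. Wdr20 had values up to 16.4 and was too low to test.

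Members tied to p53 and DNA repair mostly had a lower mean with acLDL, in 5 of 6 tested. Over all 10091 tested genes, 5618 had a lower mean, as did 2421 of the 4840 with a coding transcript of 3000 nt or more. The median log2 fold change of the group was -0.33, against -0.13 over all tested genes, and 0 of its members were called. Usp1, which removes ubiquitin from the replication clamp PCNA and from FANCD2, was 50.1, 46.4, 44.2 and 16.0 with acLDL, and 75.4, 59.7, 55.1 and 70.7 in controls. All acLDL libraries lay below all controls, and acLDL library 4 stood lowest. The log2 fold change was -0.75 (SE 0.37, 95% interval -1.59 to 0.09, limma's adjusted p = 0.301). It was -0.85 with the short-transcript covariate and -1.03 without acLDL libraries 2 and 3, and went to -0.43 when acLDL library 4 was left out. Other genes, mainly Gm5841, hold 33.5% of the 31-base stretches of its transcript but none of those in the last 500 nt.

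Usp10, which is known to stabilize p53 in the cytoplasm and binds the stress granule protein G3bp1, was 41.3, 9.32, 8.13 and 30.2 with acLDL, and 53.8, 23.9, 77.7 and 53.6 in controls. AcLDL libraries 2 and 3 stood lowest and libraries 1 and 4 lay among the controls. A log2 fold change of -1.19 (SE 0.54, limma's adjusted p = 0.298) went to -0.43 with the covariate and -0.41 without acLDL libraries 2 and 3. The gene overlaps Gm20388 on the same strand by 46720 bases, and 2.46% of the 31-base stretches of its transcript are found in other genes. G3bp1 was 1253, 1285, 1913 and 1622 with acLDL, and 912, 1008, 1225 and 1152 in controls, all acLDL libraries above all controls (difference on the log2 scale 0.48, SE 0.20, adjusted p = 0.298 by limma).

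The values of the remaining members of this group overlapped with their controls. Usp7, the deubiquitinase of Mdm2 and p53, averaged 45.9 ± 9.96 with acLDL and 50.4 ± 8.58 in controls (SD, n = 4 each), with a 95% interval for the log2 fold change of -0.77 to 0.52. Usp47, which acts on DNA polymerase beta in base excision repair, averaged 544 ± 85.8 and 476 ± 74.5, with an interval of -0.26 to 0.65. Usp42 was 25.2 to 55.4 with acLDL and 18.3 to 161 in controls, and Usp45 was 24.7 to 56.0 and 30.2 to 118, each with 1 control library far above the others. With the covariate the log2 fold change of Usp42 was -1.02, against -0.40 without it.

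The 2 tested members that handle ubiquitin chains at the proteasome or free in the cell differed in the direction of their means. Usp14 encodes the enzyme that trims chains on the proteasome's regulatory particle. It was 202, 288, 291 and 219.8 in acLDL libraries 1 to 4, and 183, 192, 171 and 177 in control libraries 1 to 4. Every acLDL library lay above every control. Its log2 fold change was 0.44 (SE 0.20, 95% interval -0.02 to 0.90, limma's adjusted p = 0.298), 0.22 with the covariate and 0.22 without acLDL libraries 2 and 3. Usp14 (chromosome 18, 9993066 to 10045119, minus strand, GRCm38) overlaps Thoc1 on the opposite strand by 2424 bases. Of the 31-base stretches in its longest coding transcript, 45.6% occur in transcripts of Thoc1. Whether counting used strand is not given in the sources used here, so reads of both may not be separated. Thoc1 was 90.4, 32.2, 37.9 and 29.2 with acLDL, and 91.6, 12.9, 75.3 and 94.6 in controls.

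Usp5, which takes apart unanchored ubiquitin chains, was 21.5, 12.2, 0 and 0 with acLDL, and 27.7, 26.1, 13.9 and 23.6 in controls. AcLDL libraries 3 and 4 were listed at 0, and library 1 lay among the controls. The log2 fold change on the log2(value + 5) scale was -1.40 (SE 0.64, 95% interval -2.84 to 0.05, limma's adjusted p = 0.298), and -0.82 with the covariate. With values at 0 it depended on the pseudocount, at -2.48 with 1 and -0.65 with 20.

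**Figure D2:**
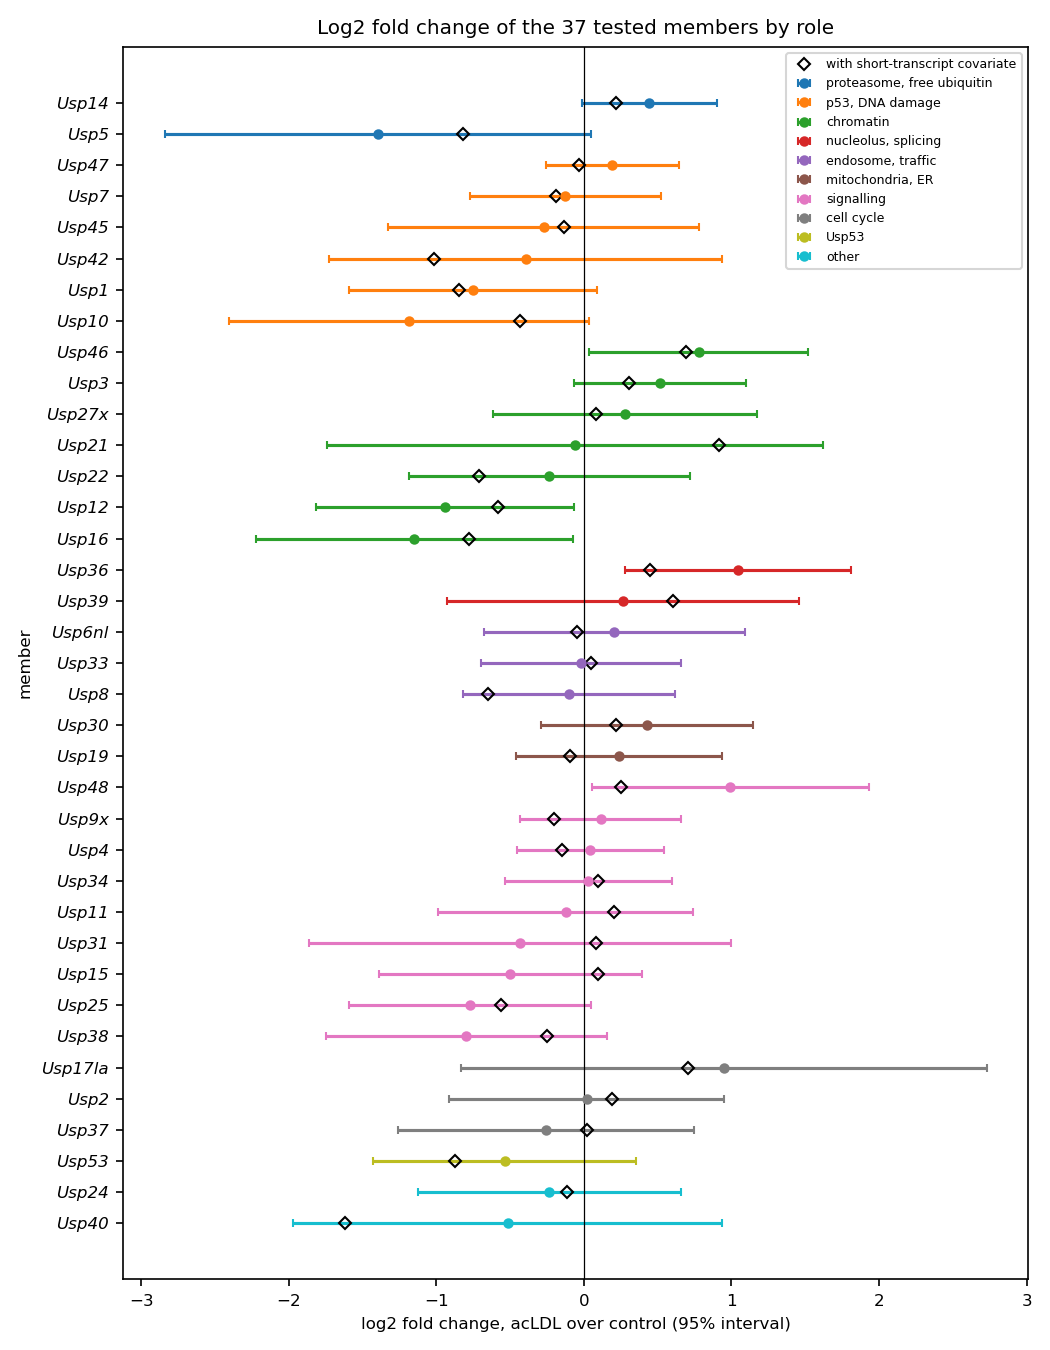
Log2 fold change of acLDL over control (x axis) for the 37 tested members (y axis), coloured by role, with 95% intervals from limma as bars and open diamonds for the value with the short-transcript covariate. Intervals of Usp36, Usp48, Usp46, Usp12 and Usp16 leave out 0, and the diamonds of Usp36 (0.45) and Usp48 (0.25) lie nearer to 0 than their points.

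Members that act on immune and growth factor signalling had 4 higher and 5 lower means in 9 tested, with a median log2 fold change of -0.12 and 0 called. Usp25, which acts on TRAF proteins in interleukin 17 and Toll-like receptor signalling, was 24.5, 10.3, 21 and 17.1 with acLDL, and 25.5, 41.4, 33.6 and 35.2 in controls. All acLDL libraries lay below all controls, with library 1 just under control library 1. In log2 terms, the fold change was -0.77 (SE 0.36, 95% interval -1.59 to 0.05, limma's adjusted p = 0.299), and -0.56 with the covariate. Usp38, known to restrain type I interferon signalling, was 83.7, 48.7, 36.9 and 38.1 with acLDL, and 42.3, 131, 127 and 87.1 in controls, where library 1 lay with the acLDL libraries. Its log2 fold change was -0.80 (SE 0.42, limma's adjusted p = 0.310), and -0.25 with the covariate. Of the 31-base stretches of its transcript, 26.0% occur in other genes, mainly the antisense gene Gm9725, and none of those in the last 500 nt.

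Usp15 and Usp4 encode close paralogs that act on TGF-beta receptors, and Usp15 is also known as a regulator of RIG-I signalling. Usp15 was 184, 45.5, 85.8 and 117 with acLDL, and 111, 168, 150.3 and 131 in controls, so acLDL library 1 held the highest and library 2 the lowest value. Usp4 averaged 189 ± 39.6 with acLDL and 181 ± 19.2 in controls (SD, n = 4 each), with a 95% interval for the log2 fold change of -0.46 to 0.54. Usp11, the third gene of this branch, averaged 25.7 ± 8.37 and 28.5 ± 9.62. For each of these, the groups overlapped.

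Usp9x encodes a large enzyme that is known to stabilize Mcl1 and to act on Smad4. It was 557, 666, 1119 and 905 with acLDL, and 781, 796, 626 and 704 in controls, with acLDL libraries on both sides of the controls. On the log2 scale it differed by 0.11 (95% interval -0.43 to 0.66), and -0.20 with the covariate. Usp34, which acts on axin in Wnt signalling, averaged 152 ± 34.3 and 148 ± 29.1 (SD, n = 4 each), with an interval of -0.54 to 0.60. The last 500 nt of its longest coding transcript are all found in transcripts of other genes, mainly its opposite-strand neighbour Ahsa2, so its level is uncertain. Usp31 was listed at 0 in acLDL library 3 and did not exceed 28.8 in any library.

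Of 5 tested members at endosomes or organelles, 0 were called. Usp8, which deubiquitinates growth factor receptors and ESCRT proteins on endosomes, was 181, 300.1, 409 and 185 with acLDL, and 382, 267, 204 and 263 in controls, with full overlap. On the log2 scale it differed by -0.10 (95% interval -0.82 to 0.62). With the covariate it was -0.65 at an unadjusted p of 0.021, and Usp40 was -1.62 at an unadjusted p of 0.012, against -0.52 without it. These were the 2 members at an unadjusted p under 0.05 in that fit, both lower. That is 5.41% of 37, near the 5.0% of all genes in either direction; 3.03% of all genes were lower at that p. The genes Usp8 and Usp50 overlap on opposite strands by 50202 bases. No 31-base stretch in the longest coding transcript of either occurs in transcripts of other genes. Usp33, which acts in receptor recycling, averaged 38.9 ± 5.73 with acLDL and 39.9 ± 9.64 in controls (SD, n = 4 each), although the last 500 nt of its transcript occur in other annotated genes as well. Usp20, its paralog, was 10.4, 21, 22.5 and 8.93 with acLDL, and 8.50, 9.66, 8.17 and 6.21 in controls. It was not tested, since 3 libraries reached the minimum value of 10 and 4 were needed.

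Usp30, the deubiquitinase of the outer mitochondrial membrane that opposes Parkin, was 28.4, 44.0, 38.6 and 29.9 with acLDL, and 26.8, 29.3, 20.5 and 22.3 in controls. AcLDL library 1 lay between control libraries 1 and 2, and the other three acLDL libraries lay above all controls. The log2 fold change was 0.43 (SE 0.32, 95% interval -0.29 to 1.15, limma's adjusted p = 0.420), and 0.22 with the covariate. Usp19, an enzyme of the endoplasmic reticulum membrane, averaged 93.2 ± 34.5 with acLDL and 75.1 ± 12 in controls (SD, n = 4 each). Usp6nl, the GTPase-activating protein, averaged 16.9 ± 5.93 and 13.6 ± 2.88.

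Members of the cell cycle and those with little known function did not separate the groups. Usp2, known to stabilize cyclin D1 and to cycle with the circadian clock, averaged 83.0 ± 29.8 with acLDL and 82.1 ± 32.3 in controls (SD, n = 4 each). Usp37, which acts on cyclin A, averaged 10.5 ± 2.10 and 14.5 ± 7.01. Usp17la, a cytokine-inducible member of a cluster of near copies, was 11.6 to 67.7 with acLDL and 0 to 47.9 in controls. Of the 31-base stretches in its transcript, 38.9% occur in other genes, so its level is uncertain. Usp53 averaged 26.2 ± 11.8 and 37.5 ± 4.52, with acLDL library 1 lowest at 10.6, and had a log2 fold change of -0.54, or -0.87 with the covariate and -0.24 without acLDL library 1. Usp24 averaged 44.6 ± 10.2 and 56.6 ± 24.4. Usp40 was 34.7, 158, 229.6 and 220.0 with acLDL, and 398, 115, 107 and 259 in controls, a wider spread within than between the groups. Usp50 was listed at 0 in 5 of 8 libraries, reached 21.1 in 1 control library and was not tested.

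**Figure D3:**
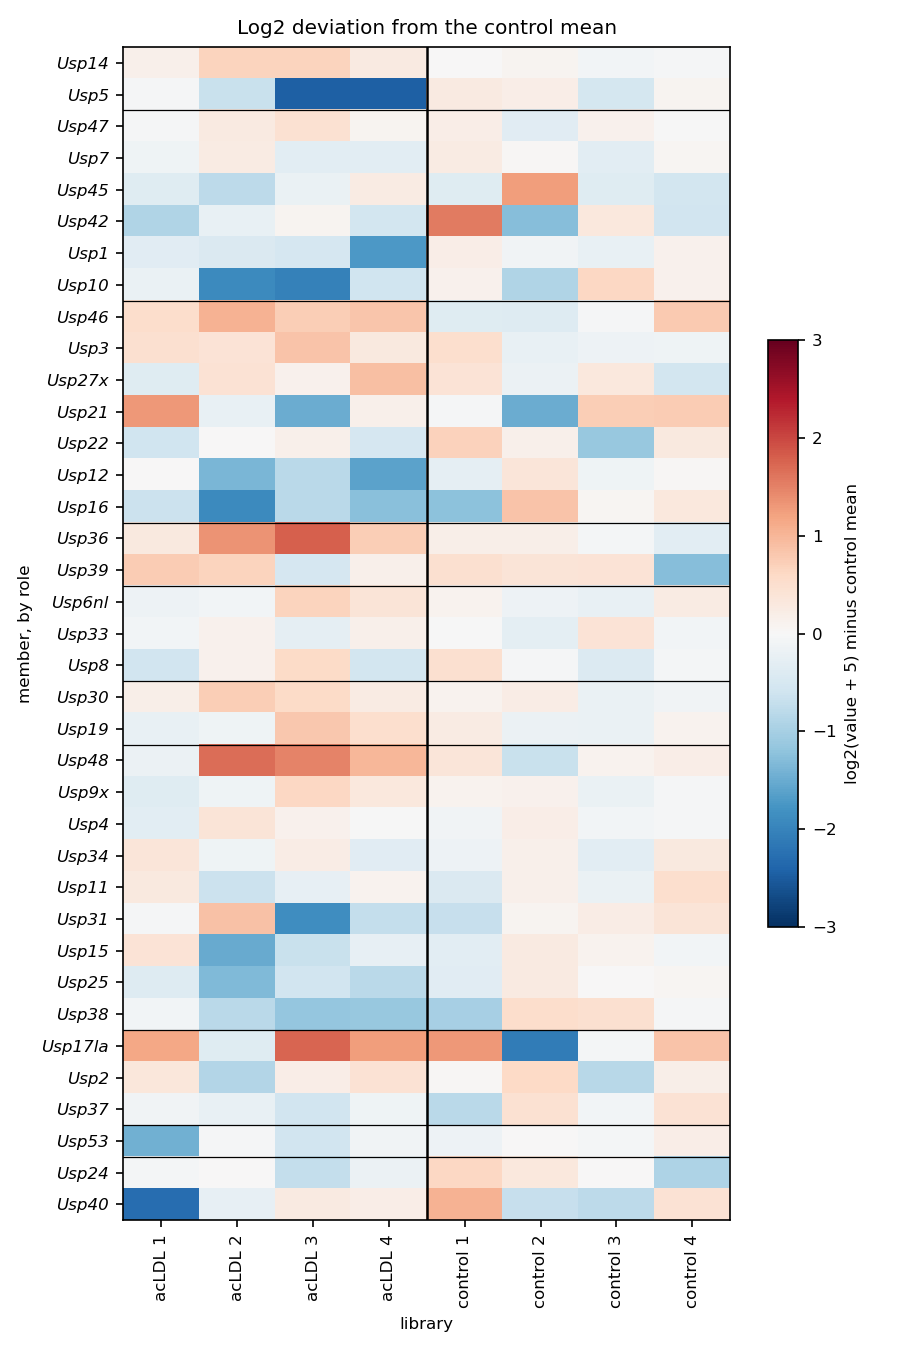
Log2(value + 5) minus the mean of the controls (colour, from -3 to 3) for the 37 tested members (rows, by role) in the 4 acLDL libraries (left) and 4 control libraries (right). AcLDL libraries 2 and 3 hold the deepest colours for Usp36, Usp48 and Usp10, and acLDL library 1 is paler than they are for these 3.

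USP transcripts are long, and in these libraries fold changes varied with transcript length. The median longest coding transcript was 4738 nt over tested members, with a range of 2244 to 12200, against 3179 nt over all tested genes with a coding length, and 0 members were under 1000 nt. Over all tested genes the median log2 fold change was -1.50 for transcripts under 1000 nt, -0.66 from 1000 to 2000 nt, -0.17 from 2000 to 3000 nt, -0.02 from 3000 to 5000 nt and 0.02 from 5000 nt on. In the last 2 of these classes, which held 19 and 15 members, the members had medians of -0.12 and -0.23. Genes of 3000 nt or more had a background of 14.7% at an unadjusted p under 0.05, beside the 13.5% of members. With the covariate, the log2 fold change moved by more than 0.5 for 11 of the 37 members and turned its sign for 11.

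**Figure D4:**
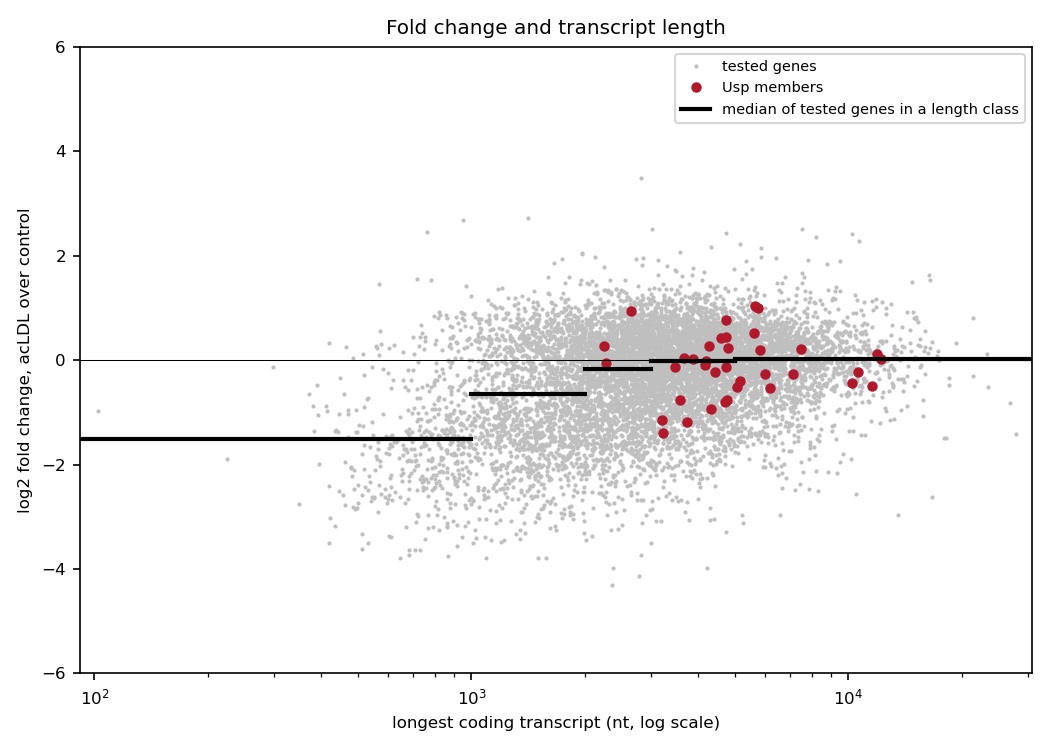
Log2 fold change of acLDL over control (y axis) against the longest coding transcript (x axis, nt, log scale) for tested genes (grey) and the 37 tested USP members (red), with black lines for the median of all tested genes in each of 5 length classes. The lines climb from -1.50 below 1000 nt to 0.02 from 5000 nt on, and the members lie in the 3 longer classes.

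Calls among the members depended on acLDL library 1. Without it, 3 members passed limma's threshold, Usp36 (log2 fold change 1.29, adjusted p = 0.028), Usp48 (1.38, adjusted p = 0.026) and Usp12 (-1.26, adjusted p = 0.032). That is 8.33% of the 36 members then tested, against a background of 22.2% of all genes. Each acLDL library then left had a short-transcript index below every control (-1.36, -2.25 and -0.30 against 0.06 to 1.08). In that fit, acLDL and the index cannot be told apart. With limma's array weights, which give less weight to libraries that deviate, 5 of 37 members passed (Usp36, Usp48, Usp12, Usp16 and Usp38), or 13.5%, against 19.4% of all genes.

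Ubb, a short gene that encodes ubiquitin as a chain of repeats, was 1574, 7.42, 0 and 339 with acLDL, and 419.7, 1313, 1765 and 1260 in controls. AcLDL library 1 did not fall outside the controls, and library 3 was listed at 0. On the log2 scale it differed by -3.80 (SE 1.66, adjusted p = 0.298 by limma), and by -0.18 with the short-transcript covariate. Its repeats are shared with other ubiquitin genes, so its level is uncertain.

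Enzymes that attach ubiquitin, E1 and E2, had 17 higher and 14 lower means of 31 tested, with a median log2 fold change of 0.02. At an unadjusted p under 0.05 there were 6 higher and 2 lower, together 25.8% against 16.4% of all genes, and 0 were called. With the short-transcript covariate, 1 of the 31 was under that p, beside 505 of all 10091 tested genes. Ube2d2a, an E2 that serves many ligases, was 1226, 2432, 2766 and 2579 with acLDL, and 1233, 772, 1177 and 1123 in controls. Its close relative Ube2d3 was 1711, 2703, 3151 and 2283 with acLDL, and 1563, 1432, 1689 and 1519.6 in controls. AcLDL libraries 2, 3 and 4 stood above every control for both, and library 1 did so for Ube2d3. Their log2 fold changes were 1.02 (SE 0.29) and 0.63 (SE 0.21), each with limma's adjusted p = 0.298, and 0.57 and 0.30 with the covariate.

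Deubiquitinases and relatives outside the members, most of them of other families, had 17 higher and 19 lower means of 36 tested, with a median log2 fold change of -0.25. At an unadjusted p under 0.05 there were 3 higher and 6 lower, together 25.0% against 16.4% of all genes, and 0 were called. With the covariate, 1 of the 36 was under that p, beside 505 of all 10091 tested genes. Cops5, the protease of the COP9 signalosome, was 540.3, 950.3, 1272 and 959.6 with acLDL, and 467, 496, 556 and 404 in controls (difference on the log2 scale 0.89, SE 0.27, adjusted p = 0.298 by limma, and 0.49 with the covariate). Vcpip1, an OTU enzyme that helps rebuild the Golgi, was 625, 706, 704 and 738 with acLDL, and 539, 378, 485 and 512 in controls, with no overlap (difference on the log2 scale 0.54, SE 0.18, adjusted p = 0.298 by limma, and 0.45 with the covariate). Cyld, a USP-fold enzyme without the Usp symbol that restrains NF-kB, averaged 458 ± 29.6 with acLDL and 437 ± 40.6 in controls (SD, n = 4 each). Tnfaip3, the NF-kB inhibitor A20, was 41.9 in acLDL library 1 and 0 in the other three, and was 0, 127, 59.8 and 103 in controls. On the log2 scale Tnfaip3 differed by -2.40 (SE 1.17, adjusted p = 0.301 by limma), and by -0.69 with the covariate. Cyld and Tnfaip3 were named after their values were seen. Of 8 tested partners of USP proteins, the mean was higher for 3 and lower for 5. Their median log2 fold change was -0.05, and 0 were called.

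**Figure D5:**
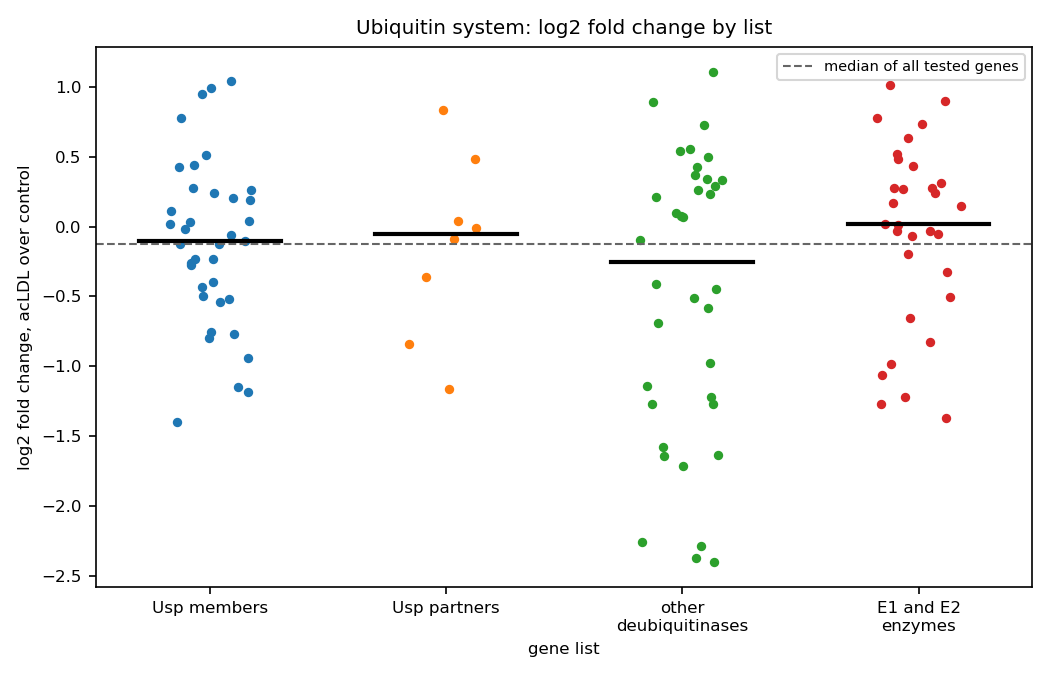
Log2 fold change of acLDL over control (y axis) for each tested gene (points) of 4 lists of the ubiquitin system (x axis), with black lines for list medians and a dashed line for the median of all tested genes (-0.13). USP members (-0.10), partners (-0.05), other deubiquitinases (-0.25) and E1 and E2 enzymes (0.02) centre near that line, and Ubb, at -3.80, is not plotted.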

How the data were processed

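The table held 1 normalized signal per gene symbol and library, made by the authors; it is named as raw counts, but no value is whole. The submitters' processing notes name the build mm10 and the tools kallisto, with no version, and bcl2fastq (version 2.20). How the values were filtered, annotated and normalized is not given in the sources used here, and the lowest gene total was 40.0. Per the labels' protocols, RNA was taken with RNeasy columns and libraries with the QuantSeq V2 kit, which reads 3′ ends, while the series' design text names 5′ ends. Depth is unknown from such values, so no counting interval was computed.

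Genes that reached 10 in 4 or more libraries were tested with limma 3.58.1 (R 4.3.3, Python 3.11.15) on log2(value + 5), the group being the only term (trend and robust options on). Intervals are 95% intervals from that fit. A gene that was not called is not thereby shown to be equal between the groups. The members and all lists were chosen with earlier results of these data known. Genes named are the 12 members with the smallest p, those without overlap, the member with the smallest p and the highest mean of each role, 11 further members fixed by symbol, and, in each other list, the 2 with the smallest p, unless said otherwise. A result that this rule takes in is not reported here. All remaining members are given as well. Transcript lengths, coordinates, overlaps and shared 31-base stretches came from GENCODE mouse release M21 (GRCm38), with a coding length for 86.2% of listed symbols and for 100% of members; members with shared stretches or an opposite-strand neighbour are uncertain. No protein table was used here.

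Alternatives were pseudocounts of 1 and 20, no filter, a mean of at least 50, median-of-ratios size factors, quantile normalization, a replicate block, the short-transcript covariate, both together, array weights, leaving out acLDL libraries 2 and 3, and leaving out each library.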

Additional observations from a re-analysis of the deposited data

Results flagged for a closer look

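Single libraries stood apart from the other three of their group for 3 of the 74 member and group pairs checked, by the gap to the nearest library over the range of the group. Chance alone would mark about 1 in 20. For Usp3 in controls, library 1 at 144 stood above the next highest at 90.3 (ratio 0.890). For Usp39 in controls, library 4 at 5.0 stood below the next lowest at 26.7 (ratio 0.902). For Usp45 in controls, library 2 at 118 stood above the next highest at 35.0 (ratio 0.945).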

How the results depend on the processing

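Of the values for named members under the alternatives, 464 kept their direction and their side of the threshold, 32 turned and 8 passed the threshold, all 8 of them without acLDL library 1 or with array weights. With array weights, 1957 genes and 5 members were called and 12 members had an unadjusted p under 0.05. With quantile normalization 1 gene was called, 0 members lacked overlap and the members' median log2 fold change was 0.20. With a mean of at least 50 it was 0.018. An unadjusted p under 0.05 was reached by 1 member with the replicate block, 2 with the short-transcript covariate, 2 with both, and 0 without acLDL libraries 2 and 3. Same-numbered libraries did not deviate together over all tested genes (correlations -0.55, -0.21, -0.28 and 0.03). These deviations also hold the differences in short transcripts, so they cannot tell whether the numbers pair the libraries. Leaving out each library gave 0 to 2102 genes called, 0 to 3 members called, 1 to 11 members with an unadjusted p under 0.05, 4 to 8 members without overlap and a median of -0.23 to -0.017. The highest counts of calls came without acLDL library 1.

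Among the 27 members named by the rule, the following log2 fold changes turned, and the cause was not tested. With median-of-ratios size factors Usp2 was -0.022. With quantile normalization Usp22 was 0.076 and Usp7 0.23. With the covariate, Usp15 was 0.10, Usp19 -0.10, Usp4 -0.15, Usp47 -0.032, Usp6nl -0.048 and Usp9x -0.20. With the replicate block and the covariate, Usp15 was 0.12, Usp19 -0.15, Usp38 0.016, Usp4 -0.10, Usp47 -0.038, Usp6nl -0.10 and Usp9x -0.20. With array weights Usp22 was 0.056 and Usp40 0.18. Without acLDL libraries 2 and 3, Usp15 was 0.082, Usp4 -0.17 and Usp9x -0.026. With single libraries left out, Usp2 ran from -0.26 to 0.32, Usp39 from -0.16 to 0.52, Usp4 from -0.074 to 0.16, Usp40 from -0.78 to 0.076, Usp8 from -0.33 to 0.060 and Usp9x from -0.057 to 0.28. Among the other 10 tested members, the covariate turned Usp11 (0.20), Usp21 (0.92), Usp31 (0.079), Usp33 (0.045) and Usp37 (0.024). Quantile normalization turned the same 5 genes with Usp24 (0.14) and Usp45 (0.11), array weights Usp34 (-0.097) and Usp45 (0.027), and leaving out acLDL libraries 2 and 3 Usp11 (0.20), Usp21 (0.73) and Usp33 (0.029). With single libraries left out, the sign of Usp11, Usp21, Usp31, Usp33, Usp34, Usp42 and Usp45 was not fixed, and Usp42 ran from -0.82 to 0.12. Depth is unknown, so what it limits cannot be given.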
